A study of Mus musculus with 16 samples.

Results

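The 8 genes described here encode proteins that sense bacterial lipopolysaccharide, or partners and relatives of these: Ly96, Ly86, Cd14, Cd180, Tlr4, Tlr2, Lbp and Myd88. They are 8 of the 19938 genes measured. Ly96 and Ly86 were chosen by their measured values, because both were higher on the high-fat diet in Gli2 heterozygotes. The other 6 were added as their partners or relatives. Each gene was read from the probe set that carries its symbol alone, and each had 1 such probe set. For that diet comparison the values below are therefore a description, with no test of these genes.

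Liver transcripts were measured in 16 adult mice with MoGene 1.0 ST arrays, which read each transcript along its whole length, with 1 array per animal. The 4 groups of 4 animals were Gli2 heterozygous null mice on a high-fat diet, Gli2 heterozygous null mice on a control diet, wild-type mice on a high-fat diet and wild-type mice on a control diet, each diet lasting 12 weeks. Gli2 is a transcription factor of the hedgehog pathway, and the study set its reduced dose against diet-induced fatty liver. The genotype label of the wild-type samples names Gli1 where that of the heterozygotes names Gli2, and no source used here gives strain or sex. Levels are log2 values after RMA, in which 1 unit is a doubling, and a difference is the first-named group minus the other with its standard error (SE). Arrays are named by group and number, so that Het_control 2 is array 2 of the heterozygous control group, and the numbers pair no animals.

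Lipopolysaccharide, a component of the outer membrane of Gram-negative bacteria, reaches the liver from the gut through the portal vein. The plasma protein Lbp, made by hepatocytes, passes it to Cd14, which hands it to Ly96 (MD-2) bound to the receptor Tlr4, and the adaptor Myd88 carries the signal towards NF-kappaB and cytokine genes. Ly86 (MD-1) is a relative of Ly96 that binds Cd180 (RP105), a relative of Tlr4 known from B cells and macrophages, while Tlr2 senses bacterial lipoproteins. In liver these proteins are best known from Kupffer cells, the resident macrophages.

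The stretches upstream of Ly86 and Cd180, whose proteins bind each other, are shown because their levels followed each other most closely among the 8 genes. Both are 250 bases before the gene's start, from RefSeq on GRCm38.p6, plus strand: chr13:37345095-37345344 for Ly86 and chr13:102693297-102693546 for the first of the entries of Cd180. Cd180 was shown after its values were seen. Capitals mark a match to a searched motif.
Ly86: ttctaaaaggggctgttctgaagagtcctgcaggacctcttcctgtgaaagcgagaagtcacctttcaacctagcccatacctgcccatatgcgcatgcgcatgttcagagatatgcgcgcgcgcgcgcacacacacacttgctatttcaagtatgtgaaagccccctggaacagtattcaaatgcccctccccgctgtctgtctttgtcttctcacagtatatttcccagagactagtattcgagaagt
Cd180: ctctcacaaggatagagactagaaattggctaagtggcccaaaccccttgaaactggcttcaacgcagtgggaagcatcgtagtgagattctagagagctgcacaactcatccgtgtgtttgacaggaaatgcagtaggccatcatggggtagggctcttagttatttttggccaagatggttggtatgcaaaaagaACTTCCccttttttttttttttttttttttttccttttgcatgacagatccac
Entries of the RefSeq promoter table were searched for 4 of the 8 genes, namely Ly86, Cd180, Tlr2 and Myd88. The motifs searched on both strands were GGAAGT of the ETS family, GGGACTTTC of NF-kappaB, GAAANNGAA of IRF factors and TTGCNNAA of C/EBP factors, and no match overlapped another. In Cd180 the ETS letters occurred on the reverse strand, from 53 to 48 bases before the start. The Ly86 window held none of the 4 motifs, Tlr2 held the ETS letters and Myd88 the IRF letters. Among all 32851 promoters of the table, windows of the same length held the ETS letters in 19.7%, NF-kappaB in 0.289%, IRF in 7.13% and C/EBP in 9.56%. A match is a string of letters and shows no binding.

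Array Het_control 2 stood apart from the rest. Over genes it correlated at 0.961 to 0.979 with the rest, which correlated at 0.99 to 0.997 with each other, and its interquartile range was 2.35, against 2.64 to 2.80. Results that rest on it are given with and without it. Gli2 did not mark the genotype: its level averaged 7.53 in heterozygotes and 7.51 in wild type on high-fat diet, and 7.70 in heterozygotes and 7.57 in wild type on control diet (genotype difference on control diet 0.13, SE 0.10, limma adjusted p = 0.447). Gli1 differed by 0.06 on high-fat diet (SE 0.06, adjusted p = 1) and by 0.03 on control diet (SE 0.06, adjusted p = 0.736), and no source used here says where the Gli2 probes lie relative to the null allele. The 10 hepatocyte markers averaged 13.45 to 13.64 on every array, as the liver label says. The deposited table carries no detection calls, so no level is known to be above or below background.

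Ly96, the lipopolysaccharide-binding subunit of the Tlr4 complex, was high and even in heterozygotes on high-fat diet and low and scattered in heterozygotes on control diet. Its levels were 10.11, 10.29, 10.02 and 10.18 in heterozygotes on high-fat diet, against 8.0, 6.19, 8.47 and 9.77 in heterozygotes on control diet. In wild type they were 9.90, 9.30, 9.59 and 9.76 on high-fat diet, against 9.40, 9.40, 9.59 and 9.62 on control diet. The 4 heterozygotes on high-fat diet lay above all 12 other arrays, 3 of the 4 heterozygotes on control diet lay below all other arrays, and the wild-type groups overlapped. The heterozygous control group held both an array near the wild type and the lowest array of all, with an SD of 1.48, against 0.11 to 0.26 in the other groups. Its 16 values spanned 4.11, or 17.2-fold, and their SD of 1.03 ranked 11 among 19938 genes, a rank that the choice of Ly96 by its values favours.

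Ly86, the small secreted partner of Cd180, had levels of 10.49, 10.71, 10.05 and 10.31 in heterozygotes on high-fat diet, against 9.46, 8.25, 9.55 and 9.68 in heterozygotes on control diet. In wild type they were 9.85, 9.62, 9.97 and 10.68 on high-fat diet, against 10.29, 10.08, 10.21 and 10.15 on control diet. The heterozygotes on control diet were lowest, with only wild-type high-fat array 2 reaching into their range, and the other 3 groups overlapped. The range over all arrays was 2.46, or 5.5-fold, and the SD of 0.59 ranked 43.

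Cd180, the receptor that Ly86 binds, had levels of 9.55, 9.96, 9.36 and 9.26 in heterozygotes on high-fat diet, against 8.95, 8.15, 9.04 and 8.85 in heterozygotes on control diet. In wild type they were 9.09, 9.01, 9.34 and 9.41 on high-fat diet, against 9.53, 9.41, 9.25 and 9.36 on control diet. The order of the groups was that of Ly86, with heterozygotes on high-fat diet highest, wild type on control diet next, then wild type on high-fat diet and heterozygotes on control diet. Each neighbour in that order overlapped the next. Cd180 ranked 294 by SD (0.39).

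Myd88, the adaptor below most Toll-like receptors, was even in 3 groups and lower in heterozygotes on control diet. Its levels were 10.15, 10.16, 10.26 and 10.21 in heterozygotes on high-fat diet, against 10.07, 9.47, 9.95 and 10.07 in heterozygotes on control diet. In wild type they were 10.16, 10.10, 10.20 and 10.14 on high-fat diet, against 10.16, 10.04, 10.29 and 10.17 on control diet. Of the heterozygous control arrays, Het_control 2 was far below the other 3.

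The other 4 genes did not separate the groups. Tlr4, the signalling receptor for lipopolysaccharide, ranged from 6.89 to 7.25 in heterozygotes on high-fat diet and from 6.76 to 7.12 in heterozygotes on control diet, and from 6.87 to 7.11 in wild type on high-fat diet and from 6.89 to 7.17 in wild type on control diet. Cd14, the co-receptor that loads Ly96, lay between 7.36 and 7.74 on all 16 arrays. Tlr2, the lipoprotein receptor, lay between 8.68 and 8.99. Lbp, the plasma carrier, lay between 11.73 and 12.42, with its lowest and its highest but 1 value, 12.40, both in heterozygotes on control diet. For each of these 4 genes all groups overlapped. By SD, Lbp ranked 3982, Tlr4 11330, Cd14 14313 and Tlr2 17894 of 19938.

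**Figure D1:**
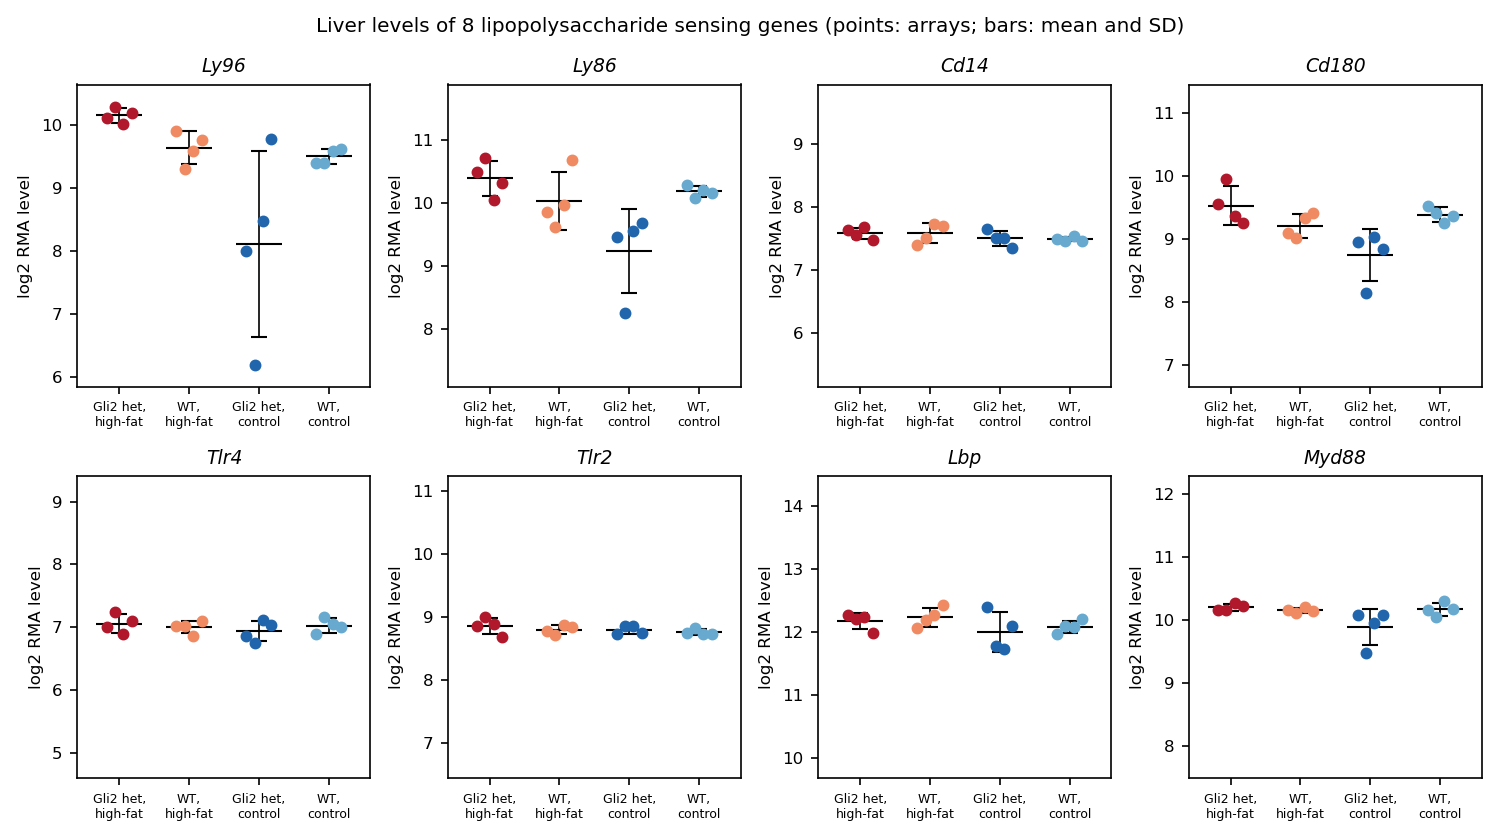
Log2 RMA level (vertical axis, the same span in every panel) of the 8 genes in 4 groups of 4 arrays; points are arrays, horizontal bars are means and whiskers are 1 SD. Ly96 on the heterozygous control arrays lies between 6.19 and 9.77, against 10.02 to 10.29 in heterozygotes on high-fat diet, while Cd14, Tlr4, Tlr2 and Lbp overlap in all groups.

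In heterozygotes, the comparison that chose Ly96 and Ly86, the high-fat group stood above the control group most for Ly96, by 2.04 (SE 0.45, 95% interval 1.09 to 3.0, or 4.12-fold). Ly86 differed by 1.16 (SE 0.26, 0.61 to 1.70, or 2.23-fold) and Cd180 by 0.78 (SE 0.17, 0.42 to 1.15, or 1.72-fold). Myd88 differed by 0.30 (SE 0.10), or 1.24-fold. For these 4 genes every high-fat array lay above every control array. Lbp differed by 0.17 (SE 0.12), Tlr4 by 0.11 (SE 0.09), Cd14 by 0.08 (SE 0.08) and Tlr2 by 0.05 (SE 0.07), with intervals that included 0.

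Ly96 differed by 2.04 while its receptor Tlr4 differed by 0.11, with an interval of -0.09 to 0.31 for Tlr4. The median difference of the 8 genes was 0.24, against -0.05 over all genes. By limma at an adjusted p under 0.05, 3 of the 8 (Ly96, Ly86 and Cd180) were called higher, beside 1.5% of all genes (300 of 19938). The arrays of 4 of the 8 did not overlap, beside 6.58% of all genes that were higher without overlap. Since this comparison chose the genes, nothing is read from these shares.

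Without Het_control 2 the same genes led with smaller differences. Ly96 then differed by 1.40 (SE 0.27, or 2.64-fold), Ly86 by 0.83 (SE 0.18, or 1.77-fold), Cd180 by 0.58 (SE 0.13, or 1.5-fold) and Myd88 by 0.16 (SE 0.06). The 3 remaining heterozygous control arrays averaged 8.75 ± 0.92 for Ly96, 9.56 ± 0.11 for Ly86 and 8.95 ± 0.10 for Cd180 (SD, n = 3). Called higher were Ly96, Ly86 and Cd180, beside 0.582% of all genes (116). These arrays are part of the comparison that chose the genes, so nothing is read from these calls either. The calls depended on single arrays: leaving out 1 array at a time, 0 to 4 of the 8 genes were called, and none was called when the array left out was any of the 4 heterozygous high-fat arrays, wild-type control 1 or wild-type control 2.

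In wild type, whose arrays are not part of the difference that chose the genes, none of the 8 passed the test of the diet. The fit takes its spread from all 16 arrays, the scattered heterozygous control group included, so the SE of Ly96 is the same as in heterozygotes and the arrays of the 2 comparisons are not fully separate. Ly96 differed by 0.13 (SE 0.45, 95% interval -0.82 to 1.09, limma adjusted p = 0.985) and Ly86 by -0.15 (SE 0.26, -0.70 to 0.40, adjusted p = 0.962). Cd180 differed by -0.18 (SE 0.17, -0.54 to 0.18, adjusted p = 0.934). With only the 8 wild-type arrays in the fit the SE was 0.11 for Ly96, 0.18 for Ly86 and 0.09 for Cd180, and again none of the 8 passed (limma adjusted p = 0.634, 0.741 and 0.444 for these 3). The other 5 differed, in the fit of all arrays, by -0.02 to 0.15 with adjusted p from 0.918 to 0.994. The median of the 8 was 0.01, against -0.01 over all genes, and 0 of 8 were without overlap, beside 8.5% of all genes in either direction. Of all genes 0% were called by limma in this comparison, with 1282 at an unadjusted p under 0.05; with array weights 131 were called higher and 88 lower, none of the 8 among them.

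On the high-fat diet, heterozygotes were above wild type in Ly96 by 0.51 (SE 0.45, -0.44 to 1.47), and the 4 and 4 arrays did not overlap. The SE takes its spread from all groups. The SD of Ly96 was 0.11 in heterozygotes and 0.26 in wild type on this diet, against 1.48 in heterozygotes on control diet. With only the arrays of this comparison in the fit, again none of the 8 was called by limma. This comparison shares the heterozygous high-fat arrays with the one that chose the genes. Ly86 differed by 0.36 (SE 0.26), Cd180 by 0.32 (SE 0.17) and the other 5 by -0.06 to 0.06. All 8 had a limma adjusted p of 1, beside 0.00502% of all genes called (1 gene, with 711 at an unadjusted p under 0.05). Ly96 was the 1 of 8 higher without overlap, beside 2.18% of all genes.

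On the control diet, heterozygotes were below wild type in Ly96 by a difference of -1.39 (SE 0.45, -2.35 to -0.44, 0.38-fold), in Ly86 by -0.95 (SE 0.26, -1.5 to -0.40, 0.518-fold) and in Cd180 by -0.64 (SE 0.17, -1.0 to -0.28, 0.641-fold). Each had a limma adjusted p of 0.279, so none passed. This comparison shares the heterozygous control arrays, Het_control 2 among them, with the one that chose the genes. Myd88 differed by -0.27 (SE 0.10, adjusted p = 0.289; -0.13 without Het_control 2), and Tlr4, Lbp, Cd14 and Tlr2 by -0.08 to 0.05.

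For Ly86 and Cd180 every heterozygous control array lay below every wild-type control array, 2 of 8 genes beside 2.1% of all genes, and for Ly96 Het_control 4 (9.77) lay above all 4 wild-type arrays. Of all genes 0% were called by limma, with 3135 at an unadjusted p under 0.05. Without Het_control 2 the differences were -0.75 for Ly96 (SE 0.27, adjusted p = 0.488), -0.62 for Ly86 (SE 0.18, adjusted p = 0.437) and -0.44 for Cd180 (SE 0.13, adjusted p = 0.437). Without Het_control 4, the highest of its group, Ly96 differed by -1.95 and passed, at a limma adjusted p of 0.0478. Of all genes 0.0903% were then called (11 higher and 7 lower). This leaves out the array that went against the difference, and Ly96 did not pass in 25 of the 26 alternatives run, so nothing is read from it.

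The diet difference in heterozygotes minus that in wild type was 1.91 for Ly96 (SE 0.64, 0.56 to 3.26, limma adjusted p = 0.46) and 1.31 for Ly86 (SE 0.37, 0.53 to 2.08, adjusted p = 0.38). For Cd180 it was 0.96 (SE 0.24, 0.45 to 1.47, adjusted p = 0.321) and for Myd88 0.32 (SE 0.15, adjusted p = 0.607). The other 4 lay between -0.02 and 0.13. None passed after adjustment, and of all genes 0% did, with 1621 at an unadjusted p under 0.05. This value contains the comparison that chose the genes. Without Het_control 2 it was 1.27 for Ly96, 0.98 for Ly86, 0.76 for Cd180 and 0.18 for Myd88.

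**Figure D2:**
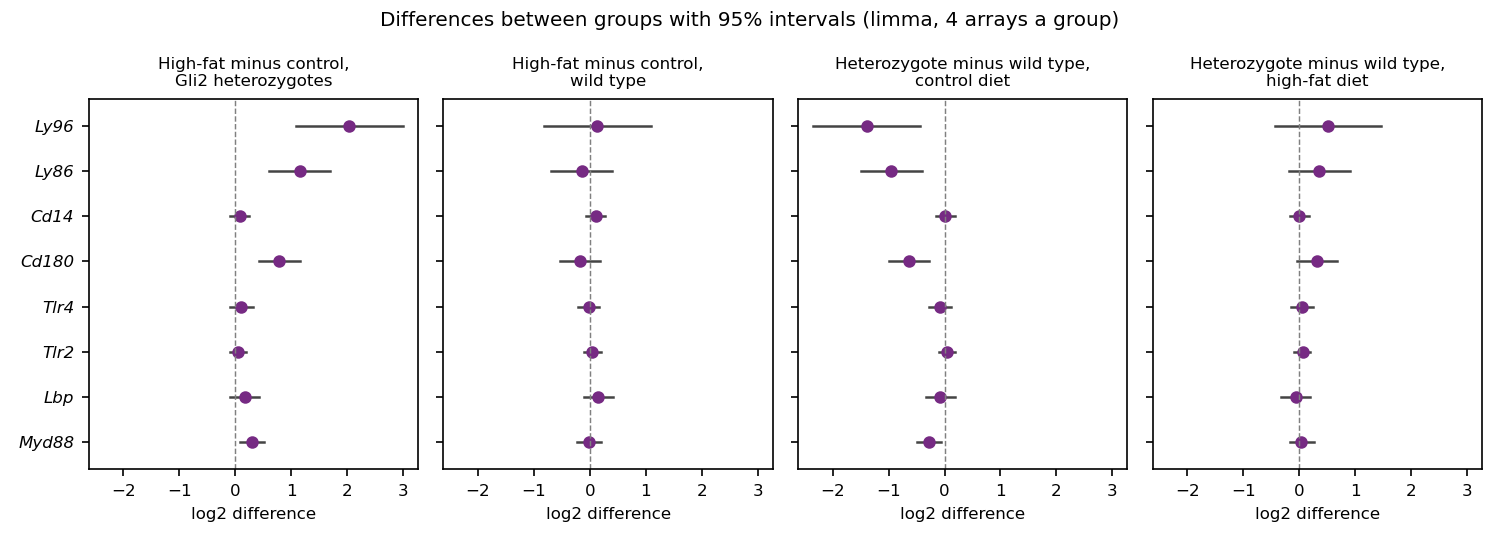
Difference between groups on the log2 scale (horizontal axis) for the 8 genes, with points for the fitted value and lines for its 95% interval from limma, 4 arrays a group. In heterozygotes the high-fat group lies 2.04 above the control group for Ly96, whereas in wild type the same difference is 0.13 with an interval from -0.82 to 1.09.

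On Het_control 2, Ly96 lay farther below the other arrays than any other of the 19938 genes. Against the median of the other 15 arrays it was lower by a log2 difference of -3.43, or 10.8-fold. Ly86 was at -1.83 (3.56-fold, rank 22), Cd180 at -1.18 (2.27-fold, rank 274) and Myd88 at -0.69 (rank 1539). The other 4 were near the bulk of the genes, with Lbp at -0.42 (rank 3348), Tlr4 at -0.26, Cd14 at -0.01 and Tlr2 at 0.09. Without this array the SD of Ly96 was 0.62 and ranked 28, that of Ly86 0.39 (rank 121), that of Cd180 0.28 (rank 400) and that of Myd88 0.09 (rank 13487). Ly96 and Ly86 were chosen for a difference between groups of these arrays, so their high ranks follow in part from that choice.

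**Figure D3:**
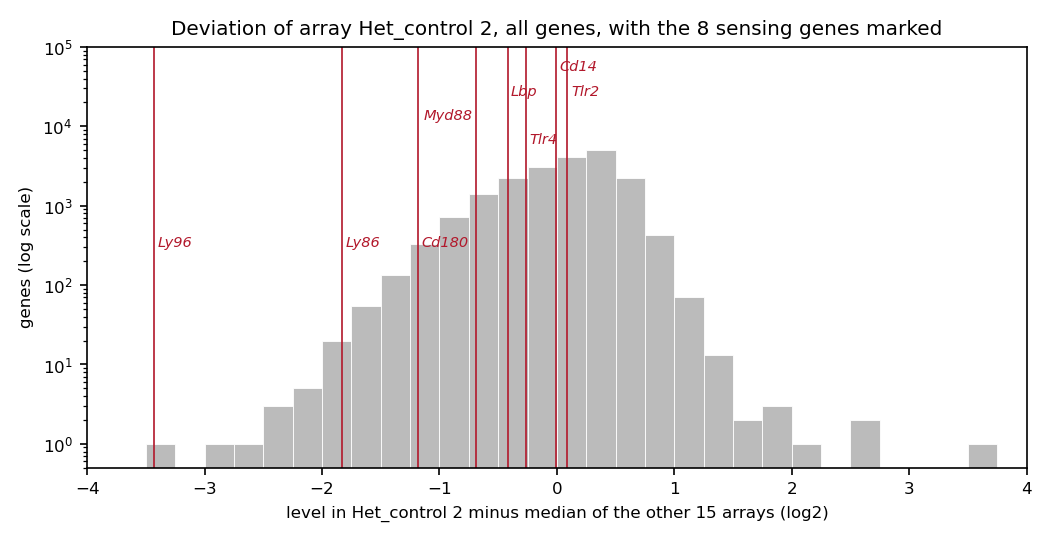
Number of genes (log scale) by their level on Het_control 2 minus the median of the other 15 arrays (log2), with red lines at the 8 sensing genes. Ly96 sits at the far left at -3.43, Ly86 at -1.83 and Cd180 at -1.18, while Cd14 and Tlr2 sit at -0.01 and 0.09.

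The 8 genes varied together in part. The values below describe the 16 arrays, which share the group differences and Het_control 2, and the value over the 15 other arrays follows each. Ly86 and Cd180, which bind each other as proteins, had the closest levels, with a Pearson r of 0.94 over 16 arrays and 0.86 over 15. Ly96 and Ly86 had an r of 0.89 over 16 and 0.71 over 15, and Ly96 and Cd180 0.81 and 0.55. Ly96 and its receptor Tlr4 had an r of 0.57 over 16 and 0.29 over 15, and Ly96 and Cd14 0.03 and -0.07. Ly96 and Myd88 had an r of 0.89 over 16 arrays and 0.60 over 15. Over the 15 arrays Ly96 followed Ly86 and Cd180 more closely than its own receptor Tlr4 or Cd14.

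By Pearson r over the 16 arrays, among the 9968 genes at or above the median level, the genes most like Ly86 were Vsig4 (0.975), a complement receptor of Kupffer cells, Fabp7 (0.968), a fatty acid binding protein, Igsf6 (0.966), Samhd1 (0.955), a nucleotide hydrolase, and Naaa (0.954), a lysosomal amidase. Over the 15 arrays without Het_control 2, 4 of these 5 were again among the closest 5, with Bank1 (0.94) in place of Samhd1. Those most like Ly96 were Cog6 (0.971), a Golgi tethering subunit, Ndufb9 (0.965), of respiratory complex I, Prkar2a (0.963), of protein kinase A, and the replication genes Pcna (0.962) and Gins4 (0.962). Without that array only Cog6 (0.926) and Prkar2a (0.922) of these stayed among the closest 5, joined by Snx12, Ehd4 and Zfand2a. Of the macrophage marker list used below, Vsig4 was among the 5 closest to Ly86, and no member was among the 5 closest to Ly96.

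Cog6 itself moved far less than Ly96. It lay between 10.17 and 10.26 in heterozygotes on high-fat diet, against 9.57 to 10.19 in heterozygotes on control diet, and Vsig4 between 11.84 and 12.06, against 10.19 to 11.51. A high r therefore marks levels that rose and fell together, and not the same size of difference.

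Most of the macrophage markers moved with these genes. The mean level of 16 Kupffer cell and macrophage markers was 10.15 to 10.49 in heterozygotes on high-fat diet, against 9.56 to 10.06 in heterozygotes on control diet, and 9.79 to 10.32 in wild type on high-fat diet, against 9.98 to 10.18 in wild type on control diet. The lowest value, 9.56, was that of Het_control 2. In the heterozygous diet comparison 16 of 16 were higher in value and 9 were called, beside 1.5% of all genes called higher. Their median difference was 0.51, against -0.05 over all genes. Without Het_control 2, 4 were called, beside 0.582% of all genes called higher, and the median was 0.45, against -0.02. With only the 8 heterozygous arrays in the fit 0 were called. In the fit of all arrays the 2 largest differences were those of Vsig4 (0.92, SE 0.21) and Adgre1, the F4/80 antigen (0.80, SE 0.20). In wild type the median was -0.07 with 0 called, and by genotype it was 0.30 on high-fat diet and -0.36 on control diet, also with 0 called. The 2 with the smallest p by genotype on control diet were Cd68, a lysosomal glycoprotein (-0.38, SE 0.11), and Folr2, a folate receptor (-0.37, SE 0.11), each at a limma adjusted p of 0.279. In that comparison Clec4f (0.01), C1qa (0.02), Cd163 (0.03) and Marco (0.13) were not lower, while the other markers were.

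Array by array, the mean macrophage marker level had an r of 0.91 with Cd180 and 0.88 with Ly86, and of 0.89 and 0.85 without Het_control 2. With Ly96 it had an r of 0.72 over 16 arrays and 0.56 over 15. Marker levels of other cells also varied with these genes over the arrays, in the same or in the opposite direction. With neutrophil markers Ly96 had an r of -0.90 over 16 arrays and -0.64 over 15, and with sinusoidal endothelial markers 0.74 and 0.41. With monocyte markers Cd180 had an r of 0.29 over 16 arrays and 0.84 over 15, and Ly86 0.20 and 0.77. With B cell markers Cd180 had 0.17 and 0.76, and Ly86 0.07 and 0.68, so the tie to macrophage markers is not particular to them. On Het_control 4 the marker level of 9.79 was among the lowest, while the Ly96 level of 9.77 was above that of every wild-type control array. In whole liver, fewer cells of a type and less RNA per cell cannot be told apart, and the part of macrophage content in the differences of the 8 genes was not tested.

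**Figure D4:**
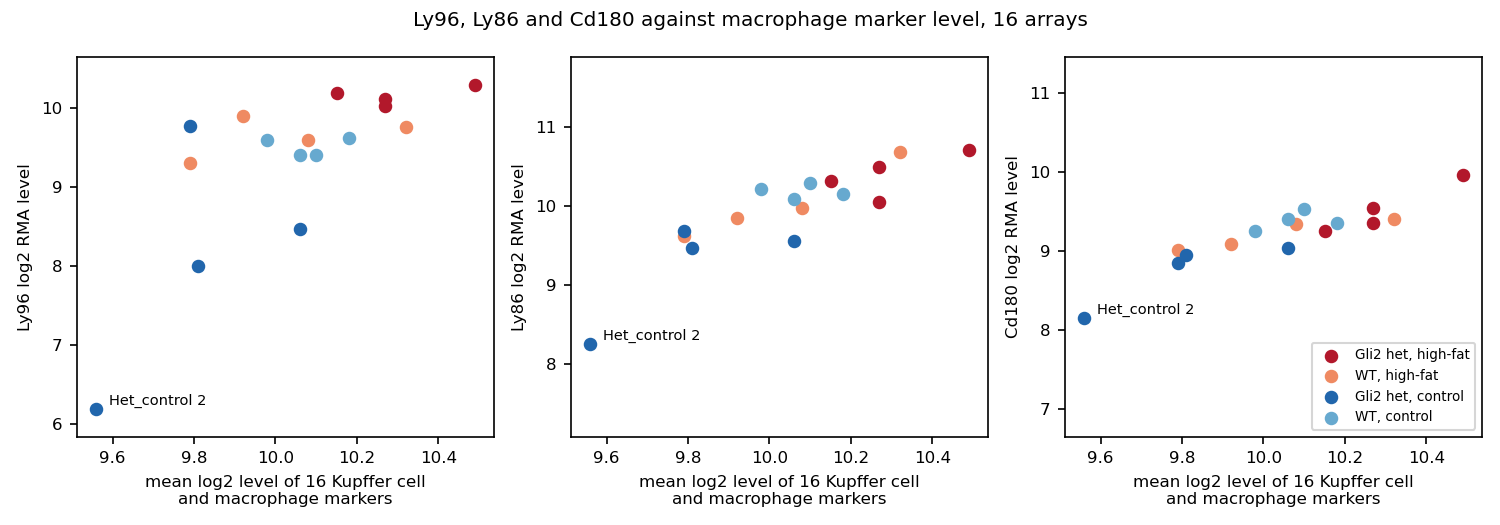
Log2 level of Ly96, Ly86 and Cd180 (vertical axes) against the mean log2 level of 16 Kupffer cell and macrophage markers (horizontal axis), with 1 point per array coloured by group. Cd180 and Ly86 follow the markers over the 16 arrays (r of 0.91 and 0.88) more closely than Ly96 (0.72), and Het_control 2 is lowest on both axes in each panel.

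Markers of the other cell types moved less in the heterozygous diet comparison, in which 1.5% of all genes were called higher. The median difference was 0.00 over 8 monocyte and recruited macrophage markers, with Lyz2 called (0.77), and 0.05 over 7 B cell markers, with Blnk called (0.53). It was 0.23 over 9 sinusoidal endothelial markers with 0 called, -0.24 over 6 bile duct markers with 0 called, and 0.01 over 10 hepatocyte markers with 0 called. Over 9 stellate cell markers it was 0.08, with Lrat called (0.96). It was -0.14 over 9 neutrophil markers, -0.08 over 8 dendritic cell markers and -0.03 over 9 T and NK cell markers, with 0 called in each. On Het_control 2 most of these lists lay outside the range of the other arrays. Neutrophil markers averaged 7.33 on it, against 6.83 to 7.0 on the others, bile duct markers 7.77, against 7.36 to 7.67, and B cell markers 7.51, against 7.20 to 7.48. Dendritic cell markers averaged 8.17, against 7.90 to 8.13, and T and NK cell markers 7.45, against 7.11 to 7.43, so these 5 lists were at their highest there. Endothelial markers averaged 9.96, against 10.12 to 10.63, stellate cell markers 9.65, against 9.67 to 9.99, and hepatocyte markers 13.45, against 13.53 to 13.64, so these 3, like the macrophage markers, were at their lowest. The lists at their highest had lower levels than the lists at their lowest, and this array also had the narrower interquartile range given above. Whether these list values reflect cells or the array was not tested. Without Het_control 2 none of these single markers was called. The part of these cells in the result was not tested.

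The wider pathway was read from 6 lists, whose counts in heterozygotes stand beside 1.5% of all genes called higher by diet. In heterozygotes 0 of 14 measured adaptors and kinases of Toll-like receptor signalling were called, with a median difference of 0.11 against -0.05 over all genes. Ticam1, the adaptor of the Myd88-independent branch, differed by -0.26 (SE 0.09) and Tab2, which links Traf6 to the kinase Map3k7, by 0.21 (SE 0.13). Of 12 transcription factors driven by these receptors, 1 was called higher: Rel, an NF-kappaB subunit, by 0.67 (SE 0.13). Irf7, of the interferon response, differed by 0.39 (SE 0.14) and was not called. Of 13 negative regulators 1 was called higher, the NF-kappaB inhibitor Nfkbib (0.53, SE 0.11), while the deubiquitinase Cyld differed by 0.28 (SE 0.11).

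Of 20 cytokines and other genes that lipopolysaccharide induces in macrophages, 2 were called higher: the chemokine Cxcl10 by 0.92 (SE 0.18) and the cytokine Il1b by 0.58 (SE 0.14). Il1a differed by 0.78 (SE 0.20) and was not called, and the median of the 20 was 0.04. Of 12 other Toll-like receptors and their chaperones, Tlr7, a sensor of single-stranded RNA, was called (0.58, SE 0.14), Tlr3, a sensor of double-stranded RNA, was not (0.59, SE 0.16), and the median was 0.23, close to the 0.24 of the 8 sensing genes (0.25 and 0.13 without Het_control 2). Of 13 genes of lipopolysaccharide transfer, clearance and the inflammasome, Aim2, a DNA sensor, was called at the threshold (0.36, SE 0.09). In that list Pltp, a phospholipid transfer protein, differed by -0.60 (SE 0.16) and the inflammasome protease Casp1 by 0.50 (SE 0.13). No gene of these 6 lists was called lower.

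Without Het_control 2, 1 gene was called among the transcription factors, 1 among the negative regulators and 1 among the induced genes. In the other 3 lists 0 were called, beside 0.582% of all genes called higher. In wild type, in both genotype comparisons and in the diet by genotype difference 0 genes of the 6 lists were called by limma, beside the shares of all genes given above. In wild type the medians of the 6 lists lay between -0.03 and 0.07, against -0.01 over all genes. In the genotype comparison on high-fat diet the median of the 20 induced genes was 0.15, against 0.01 over all genes, with 18 of 20 higher in value and none called. Il1b differed there by 0.62 (SE 0.14, limma adjusted p = 0.628) and Cxcl10 by 0.58 (SE 0.18, adjusted p = 0.929).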

How the data were processed

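The deposited values are log2 expression levels, 1 per probe set and array. The submitters' processing notes name RMA and Affymetrix Expression Console, with no version, and the authors' levels were used as deposited, per the labels and the submitters' processing notes. RMA gives all arrays 1 distribution of intensities, so levels are relative to the other arrays. Of 35556 probe sets, 21789 had 1 gene symbol in the platform annotation, 1621 several and 12146 none, and only those with 1 symbol were used. Symbols were updated by Entrez number with RefSeq names of GRCm38.p6 (19856 of 19938 genes matched), and 999 genes with several probe sets were represented by the brightest. No genome build is given for the arrays.

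All 16 arrays entered 1 limma 3.58.1 fit in R 4.3.3 (lmFit, eBayes, a mean per group), with p-values adjusted over all 19938 genes by Benjamini-Hochberg and calls at an adjusted p under 0.05. P-values weigh a difference against the spread between animals within groups, estimated over all groups together. The fit was tested on simulated data. The 8 genes, the lists and the rules were chosen with earlier results of these data known. Named by rule were the 8 genes, the 2 genes of the Kupffer and pathway lists with the largest difference by diet in heterozygotes (elsewhere the smallest p), the 5 genes most like Ly96 and Ly86, Gli2 and Gli1; called genes of a list outside this rule were named after their values were seen. Het_control 2 was kept. Titles hold 11 numbers of unstated meaning, 5 on more than 1 array and 0 in both genotypes, and were tried as a random block with statmod 1.5.0. Motifs were sought in 250 bases before the start. With 4 arrays a group, the number of arrays limits the precision.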

Additional observations from a re-analysis of the deposited data

Results flagged for a closer look

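Ly86 on Het_control 2 stood apart within its group. Its level was 8.25, against 9.46, 9.55 and 9.68 on the other heterozygous control arrays, and its gap to the nearest of them was 0.843 of the group's whole range, above Dixon's 95% critical value for 4 arrays. It was the 1 such value among 32 sets of 4 arrays (8 genes in 4 groups). Chance alone gives about 1 in 20 for a single set. The sets share the same arrays and are not independent, so their count cannot tell chance from a property of this array. The cause was not tested. The difference of Ly86 between high-fat and control diet in heterozygotes was 1.16 with this array and 0.83 without it.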

How the results depend on the processing

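No paired analysis was possible because the labels give no replicate numbers, and those used here are only names. In heterozygotes the diet difference kept its sign for all 8 genes under every alternative run, with Ly96 at 1.40 to 2.6 on leaving out 1 array and 1.51 to 2.22 otherwise, and Ly86 at 0.83 to 1.3 and 0.85 to 1.23. The number of the 8 called there was 3. Leaving out 1 array gave 0 to 4: 0 without any heterozygous high-fat array, wild-type control 1 or 2; Cd180 alone without Het_control 1, Het_control 3 or wild-type high-fat 3; Ly96 and Cd180 without wild-type control 4 or wild-type high-fat 1; and Myd88 as well without Het_control 4. It was 0 with only the 8 arrays compared or with all probe sets, and 4 with a random block for the title numbers, whose estimated correlation was -0.372; all genes called higher then numbered 2, 54 and 2896, against 300, and 30 to 1868 on leaving out 1 array. In wild type, genotype on high-fat diet and the interaction the number stayed at 0, while all genes called by diet in wild type numbered 0, against 131 higher and 88 lower with array weights, 22 and 18 with the random block and 5 and 1 with only the arrays compared. On control diet it was 0 to 1 on leaving out 1 array, with Ly96 between -1.95 and -0.75 and Ly86 between -1.1 and -0.62. The cause was not tested.

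Signs turned only for small values. Leaving out 1 array, Cd14 ranged from -0.08 to 0.03 (interaction), -0.03 to 0.06 (genotype, control diet) and -0.07 to 0.05 (genotype, high-fat diet), Lbp from -0.07 to 0.15, -0.21 to 0.01 and -0.12 to 0.00 in the same comparisons, Myd88 from -0.06 to 0.03 and Tlr4 from -0.07 to 0.02 (diet in wild type), Tlr2 from -0.03 to 0.07 (interaction) and Tlr4 from -0.01 to 0.11 (genotype, high-fat diet). With array weights Cd14 was 0.02 (interaction) and 0.04 (genotype, high-fat diet) and Myd88 0.01 (diet in wild type). With quantile normalization repeated Cd14 was 0.05 (interaction) and -0.05 (genotype, control diet), and Lbp -0.05 and 0.01. With arrays centred on their median Cd14 was -0.01 (genotype, control diet), and in wild type by diet Myd88 was 0.01 and Tlr4 0.00; with the random block Myd88 was 0.01. Of the 5 genes most like Ly86, 2 were shared by Spearman and 0 by deviations from group means; for Ly96 2 and 1, and 2 without Het_control 2. A promoter window that also holds 50 bases after the start gave a motif in 4 genes in place of 3. Of the alternatives added after seeing the data, list counts ranged on leaving out 1 array from 1 to 10 for Kupffer cell markers (main 9), 0 to 5 for induced genes (2), 0 to 4 for other Toll-like receptors (1) and 0 to 2 for the transcription factors, negative regulators and transfer genes (1 each). With only the arrays compared 0 genes of each list were called, and with the random block 12 Kupffer cell markers were. Only the arrays compared gives no interaction, and Tlr4 is below the 30th percentile filter.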
